A study of Mus musculus with 6 samples.

Results

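The cytosolic ribosomal protein genes are the protein-coding genes whose symbols are Rpl or Rps with a number and at most an a, x, y or l and 1 digit, together with Rpsa, Rplp0, Rplp1 and Rplp2. Pseudogene symbols and the Rps6k kinases were left out. The rule found 82 of the 29872 genes in the files, 50 of the large and 32 of the small subunit, and 79 of them had a mean of at least 1 RPKM (reads scaled by gene length and by library depth) and were tested. RNA from the hippocampus of C57BL/6J mice had been sequenced in 6 libraries, 3 per group. In the group labelled shHepaCAM, an adeno-associated virus put into the CA1 field of both hippocampi carried a short hairpin RNA against Hepacam, the gene of an astrocyte adhesion molecule. The other group is labelled shControl with the genotype WT, and its labels leave unsaid whether those mice were given a vector. No promoter or target cell type of the virus is named, and age and sex are not in the labels. Separate mice per library are not stated either, so what the p-values measure is library-to-library spread that could be technical. The libraries are bulk tissue, in which fewer cells of a type and less RNA per cell cannot be told apart.

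Ribosomal proteins join ribosomal RNA in the nucleolus to build the small subunit, which reads the messenger RNA, and the large subunit, which links amino acids. One copy of nearly every protein goes into each ribosome, and the acidic stalk proteins Rplp1 and Rplp2 are the known exception. Their messenger RNAs start with a cytidine followed by a run of pyrimidines, the 5′ terminal oligopyrimidine (TOP) tract, through which mTOR and Larp1 set their translation together with that of elongation factors. Ribosomal protein genes also have many processed pseudogenes, so short reads from a member can be placed on a copy, or the reverse. In the brain these messengers are found in neurons, in glia and in neuronal processes.

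The libraries rest on 14903198 to 17341842 reads. Hepacam stood at 37.3, 33.4 and 35.9 RPKM in control and 24.4, 22.6 and 20.9 RPKM in knockdown libraries (log2 change -0.63, SE 0.07, adjusted p = 0.00924). This test is limma on log2(RPKM + 1), with p-values adjusted over all genes tested, here and throughout. Without shControl replicate 3 it missed the threshold (-0.62, adjusted p = 0.0526). The permutation test for Hepacam, exact and two-sided, gave p = 0.1, the smallest that 3 libraries against 3 allow. Limma called 842 of 13864 genes (6.07%), with 4.23% higher and 1.84% lower after knockdown. The median gene differed by 0.05 on the log2 scale. All 12 neuronal and 10 astrocyte markers on the fixed lists were above 0 in every library. The libraries shControl replicate 1 and shHepaCAM replicate 3 stood apart: their 12 choroid plexus markers summed to 118 and 71.2 RPKM, against 2028 to 4909 RPKM in the other 4 libraries.

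RefSeq promoter windows on build GRCm38.p6, from 250 bases before to 50 after the annotated start, were matched for 62 of the 82 members (74 windows). The starts of the 9 members that passed the test, described next, are shown first because a TOP tract would lie there, and those of the 4 members with the lowest log2 changes follow for comparison. Each sequence runs 5′ to 3′ from 50 bases before the start to 30 bases into the transcript, with capitals on the longest run of C and T that touches the stretch from 10 bases before to 20 after the start. The files were made on another build (mm39, per the submitters' processing notes), so the positions are those of the RefSeq table alone.
Rpl4, chr9:64173337-64173416, plus strand: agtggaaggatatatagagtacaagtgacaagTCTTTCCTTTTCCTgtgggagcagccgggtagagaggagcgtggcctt
Rplp0, chr5:115559417-115559496, plus strand: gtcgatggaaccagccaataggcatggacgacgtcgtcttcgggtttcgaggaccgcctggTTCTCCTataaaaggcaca
Rpl10a, chr17:28328421-28328500, plus strand: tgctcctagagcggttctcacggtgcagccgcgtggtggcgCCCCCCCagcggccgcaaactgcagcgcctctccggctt
Rpl10a other start, chr17:28328515-28328594, plus strand: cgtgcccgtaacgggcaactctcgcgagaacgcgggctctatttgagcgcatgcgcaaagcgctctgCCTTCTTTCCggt
Rpl5, chr5:107900478-107900557, plus strand: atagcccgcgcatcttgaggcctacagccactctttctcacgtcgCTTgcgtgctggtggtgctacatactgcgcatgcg
Rpl12, chr2:32961662-32961741, plus strand: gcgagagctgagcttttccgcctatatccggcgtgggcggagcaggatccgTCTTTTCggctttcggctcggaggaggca
Rpl6, chr5:121204451-121204530, plus strand: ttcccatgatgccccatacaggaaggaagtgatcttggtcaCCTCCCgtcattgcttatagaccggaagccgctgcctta
Rps10, chr17:27635215-27635294, minus strand: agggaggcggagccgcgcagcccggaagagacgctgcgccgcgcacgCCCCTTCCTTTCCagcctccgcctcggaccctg
Rps9, chr7:3703991-3704070, plus strand: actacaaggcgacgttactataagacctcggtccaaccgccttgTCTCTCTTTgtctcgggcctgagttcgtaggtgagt
Rps6, chr4:86857338-86857417, minus strand: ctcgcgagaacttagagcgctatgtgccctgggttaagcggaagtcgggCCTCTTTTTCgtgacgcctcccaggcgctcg
Rps7, chr12:28635924-28636003, minus strand: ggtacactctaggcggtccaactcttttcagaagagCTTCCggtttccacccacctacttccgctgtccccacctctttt
Rps4x, chrX:102189362-102189441, minus strand: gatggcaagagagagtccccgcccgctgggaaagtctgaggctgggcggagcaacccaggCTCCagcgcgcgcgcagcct
Rpsa, chr9:120127716-120127795, plus strand: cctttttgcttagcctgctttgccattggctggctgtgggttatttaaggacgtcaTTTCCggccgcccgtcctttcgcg
Rpl27, chr11:101442195-101442274, plus strand: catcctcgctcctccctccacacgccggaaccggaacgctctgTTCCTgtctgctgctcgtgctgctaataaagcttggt
The longest runs were the 14 bases of Rpl4 and the 13 bases of Rps10, and the runs of Rps7, Rps4x, Rpsa and Rpl27 had 4 or 5 bases. Counted from the annotated start, the Rpl4 run began at -18 and ended before the start, while the Rps10 run spanned it. The runs of Rpl5, Rpl6, Rps7, Rpl27 and the first Rpl10a start also ended before the start. Whether any run is a TOP tract was not tested. Rpl5, which passed the test, had a run of 3 bases by this search, so short runs occurred on both sides of the threshold. Longer runs that lay just outside the searched stretch, such as ctctttctc in Rpl5 and tcctttc in Rpsa, were not counted. The run lengths therefore depend on where the annotated start lies. A run of at least 8 bases near the start was present in 5 of the 10 windows of the called members, in 27 of the 64 windows of the other members (42.2%) and in 16.9% of the 32851 promoter windows kept. The letters CTTTCC, read on the sense strand anywhere in the window, were present in 6 of 10, 34.4% and 14.1% of those windows. CTCTTTCC, a longer form that overlaps it, was present in 1 of 10, 14.1% and 493 of 32851 windows. CCGGAAG, the core bound by ETS factors such as GABPA, was present on either strand in 3 of 10, 37.5% and 8.86%. AAGATGGC, the YY1 core, was present on either strand in 0 of 10 called windows, 12.5% of the other members' and 2.75% of all windows. TATAAA on the sense strand was present in 1 of 10, 7.81% and 8.32%. These are matches of letters, and some windows of the same gene overlap.

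Most ribosomal protein transcripts were slightly higher in the knockdown libraries. Of 79 tested members, 77 had a log2 change above 0 (97.5%, against 60.4% of all genes tested), and the median change was 0.19 on the log2(RPKM + 1) scale, or 1.14-fold, with an interquartile range of 0.13 to 0.24. The median of all genes was 1.03-fold. Limma called 9 members higher (11.4%, against 4.23% of all genes) and 0 lower, and 70 did not pass. At an unadjusted p under 0.05 there were 45 higher members (16.3% of all genes) and 0 lower, and limma-voom on the recovered reads called 11 higher and 0 lower (5.42% and 2.35% of all genes). All 3 knockdown libraries lay above all 3 control libraries for 44 members (55.7%, against 20.9% of all genes) and below them for 0 (10.7% of all genes). The members are mostly abundant, so genes of like level were also counted. Of the 2444 genes at or above the 10th percentile of the members' mean RPKM, 5.73% were called higher. Knockdown libraries lay wholly above control for 22.1% of those genes. The subunits gave like values: of the large subunit 6 of 47 were called (median 1.14-fold), and of the small subunit 3 of 32 (median 1.15-fold). Single members differed by between -0.05 and 0.40 on the log2 scale.

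The calls on single members depended on the scaling and on single libraries, while the median stayed above 0 in all 20 alternatives run. Scaling every library to its median gene, or by TMM factors, left 0 called members (2.42% and 2.94% of all genes were then called higher). The members' median was then 0.11 and 0.14, against -0.03 and 0.0005 for all genes. Of the members 64 and 73 were above 0, and 11 and 17 were at an unadjusted p under 0.05. Under median-gene scaling the split over all genes was 336 higher and 347 lower. Leaving out shControl replicate 1, 2 or 3 left 0 called members (33, 22 and 21 at an unadjusted p under 0.05), while 1.38%, 0.707% and 0.541% of all genes were called higher. Leaving out shHepaCAM replicate 1 left 6 (3.97% of all genes), leaving out replicate 2 gave 18 (2.11%) and leaving out replicate 3 gave 0 (1.81%; 23 members at an unadjusted p under 0.05). With shControl replicate 1 and shHepaCAM replicate 3 both left out, the pair poor in choroid plexus transcripts, 0 members were called (0.656% of all genes). At an unadjusted p under 0.05 there were 21 members, the median was 0.15 (0.06 for all genes) and 69 of 79 were above 0. The shares of all genes above 0 or at an unadjusted p under 0.05 were counted only in the main fit (60.4% and 16.3%). The member counts by these rules in the alternatives therefore have no like share beside them.

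**Figure D1:**
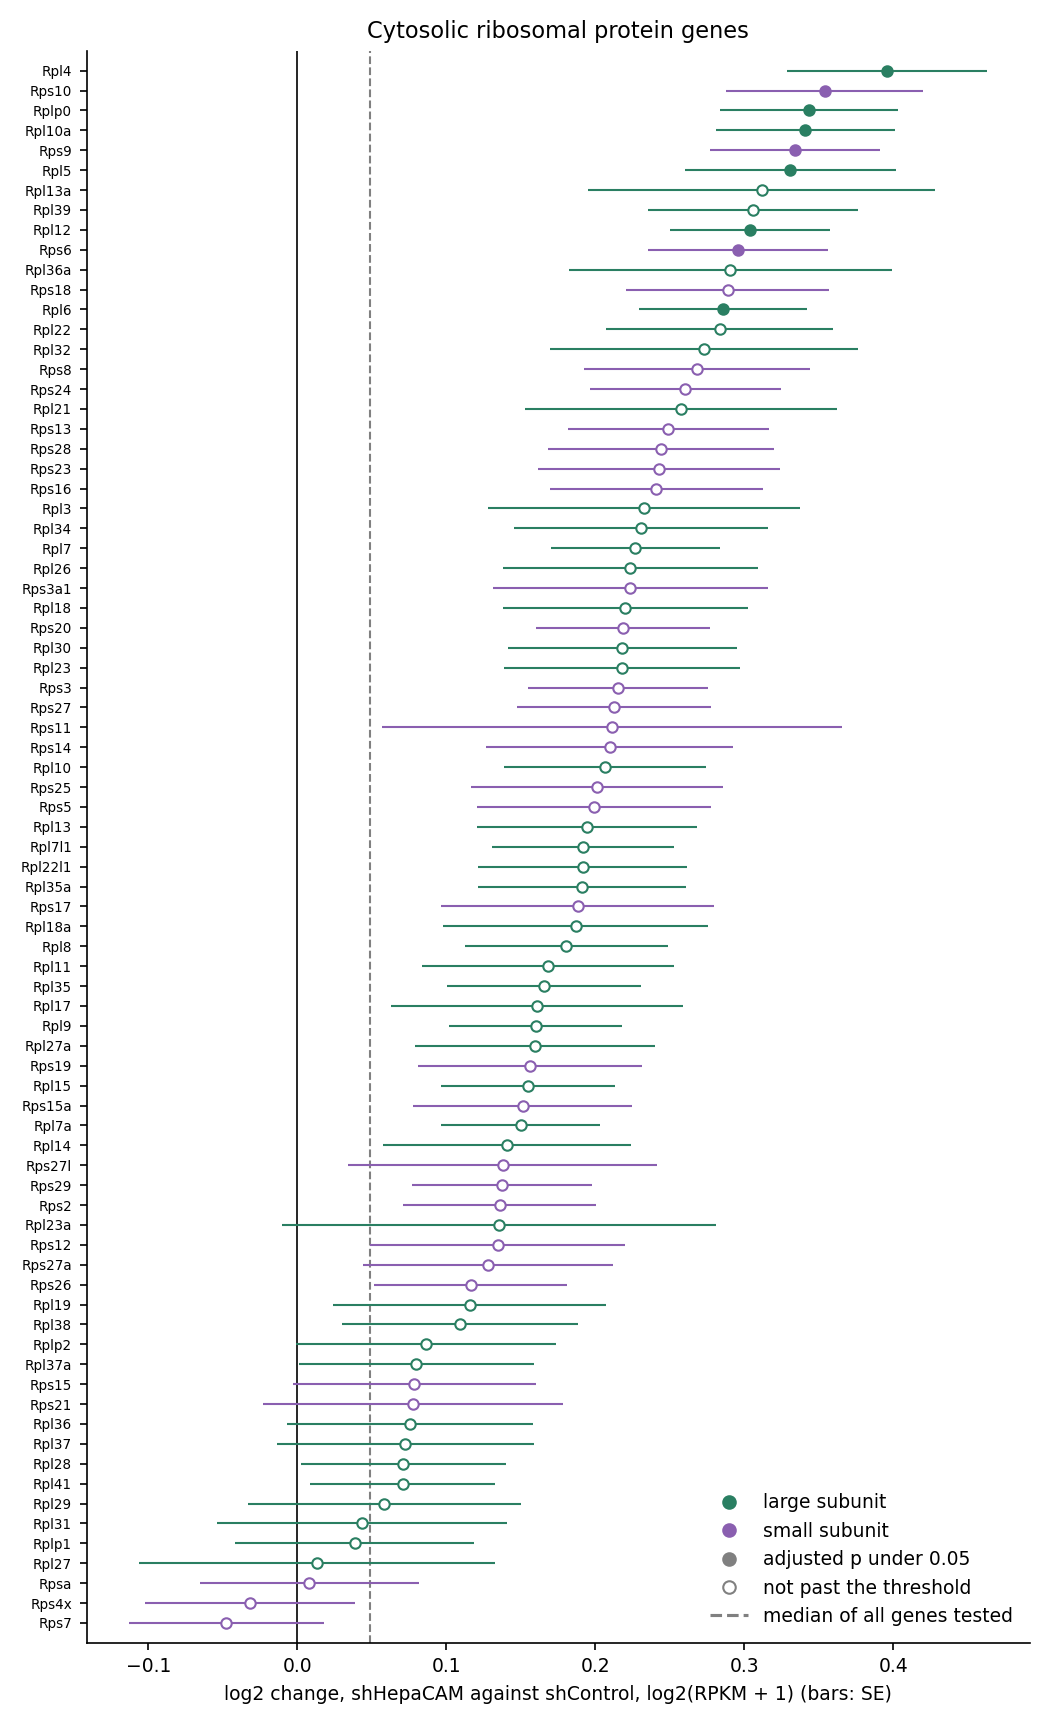
Log2(RPKM + 1) change (shHepaCAM minus shControl, limma) with its standard error for each of the 79 tested ribosomal protein genes, in order of size; green is the large and purple the small subunit, filled circles are called members and the dashed line marks the median of all genes. All but Rps7 and Rps4x lie above 0, and the 9 called members lie between 0.29 and 0.40. With median-gene scaling 64 of the 79 stay above 0, where the median of all genes is -0.03.

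Of the large subunit, Rpl4, whose protein reaches into the tunnel that the new peptide leaves through, stood at 231, 217 and 218 RPKM in control and 288, 278 and 311 RPKM in knockdown libraries. The groups did not overlap, and the change was the largest of any tested member on the log2(RPKM + 1) scale (log2 change 0.40, SE 0.07, adjusted p = 0.0236). As a plain ratio of means Rpl4 was 1.32-fold higher, and the low Rpl13a, which did not pass, 1.34-fold. Rplp0, the base of the stalk that recruits elongation factors, had 159, 157 and 159.7 RPKM in control and 208, 190.0 and 207 RPKM in knockdown libraries (log2 change 0.34, SE 0.06, adjusted p = 0.0247). Rpl12, its neighbour at the stalk base, had the smallest control spread of any tested member, with 42.2, 42.4 and 42.5 RPKM in control and 52.6, 50.3 and 54.7 RPKM in knockdown libraries (log2 change 0.30, SE 0.05, adjusted p = 0.0260). In both genes the lowest knockdown library, shHepaCAM replicate 2, was still above the highest control library.

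Rpl10a, the protein of the mobile L1 stalk that helps the used transfer RNA out, had 55.2, 58.9 and 54.3 RPKM in control and 72.1, 68.0 and 73.9 RPKM in knockdown libraries (log2 change 0.34, SE 0.06, adjusted p = 0.0260). Rpl5, which carries 5S ribosomal RNA into the large subunit and with it binds Mdm2, had 50.04, 47.0 and 47.7 RPKM in control and 59.3, 57.2 and 66.7 RPKM in knockdown libraries (log2 change 0.33, SE 0.07, adjusted p = 0.0424). Rpl6, an RNA-binding protein of the large subunit, had 73.6, 76.7 and 75.5 RPKM in control and 95.1, 87.4 and 93.5 RPKM in knockdown libraries (log2 change 0.29, SE 0.06, adjusted p = 0.0347). All 3 genes had knockdown libraries wholly above the control libraries, and for Rpl6 it was replicate 1, not replicate 3, that stood highest.

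Of the small subunit, Rps10, a protein of its head, had 40.04, 42.6 and 39.0 RPKM in control and 51.2, 49.5 and 55.7 RPKM in knockdown libraries (log2 change 0.35, SE 0.07, adjusted p = 0.0304). Rps9, which lies by the channel where messenger RNA enters, had 75.8, 78.0 and 75.1 RPKM in control and 96.0, 92.2 and 101 RPKM in knockdown libraries (log2 change 0.33, SE 0.06, adjusted p = 0.0239). Rps6, the substrate of S6 kinase and a common readout of mTOR activity, had 144, 145 and 132 RPKM in control and 171, 169 and 177 RPKM in knockdown libraries (log2 change 0.30, SE 0.06, adjusted p = 0.0384). The groups were apart in each of these 3 genes. Across 20 alternative settings all 9 called members kept the sign of the change, and Rpl4, Rplp0 and Rps9 stayed called in 11 settings, with adjusted p-values of up to 0.120, 0.159 and 0.153. Each of the 9 lost its call when shControl replicate 1, 2 or 3 or shHepaCAM replicate 3 was left out, with adjusted p-values between 0.0578 and 0.153. Rpl5, Rpl6 and Rps6 also lost it without shHepaCAM replicate 1 (0.0604, 0.0605 and 0.0600), and Rps6 without shHepaCAM replicate 2 (0.0526).

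Just outside the threshold came Rpl39 (0.31, adjusted p = 0.0503), Rps18 (0.29, adjusted p = 0.0544), Rps24 (0.26, adjusted p = 0.0601) and Rpl7 (0.23, adjusted p = 0.0627), of which the knockdown and control libraries did not overlap. Rpl6, with a log2 change of 0.29 and an adjusted p of 0.0347, and Rps18, with 0.29 and 0.0544, fell on opposite sides of the threshold with changes of like size. The plot of changes by member shows no gap at the threshold.

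**Figure D2:**
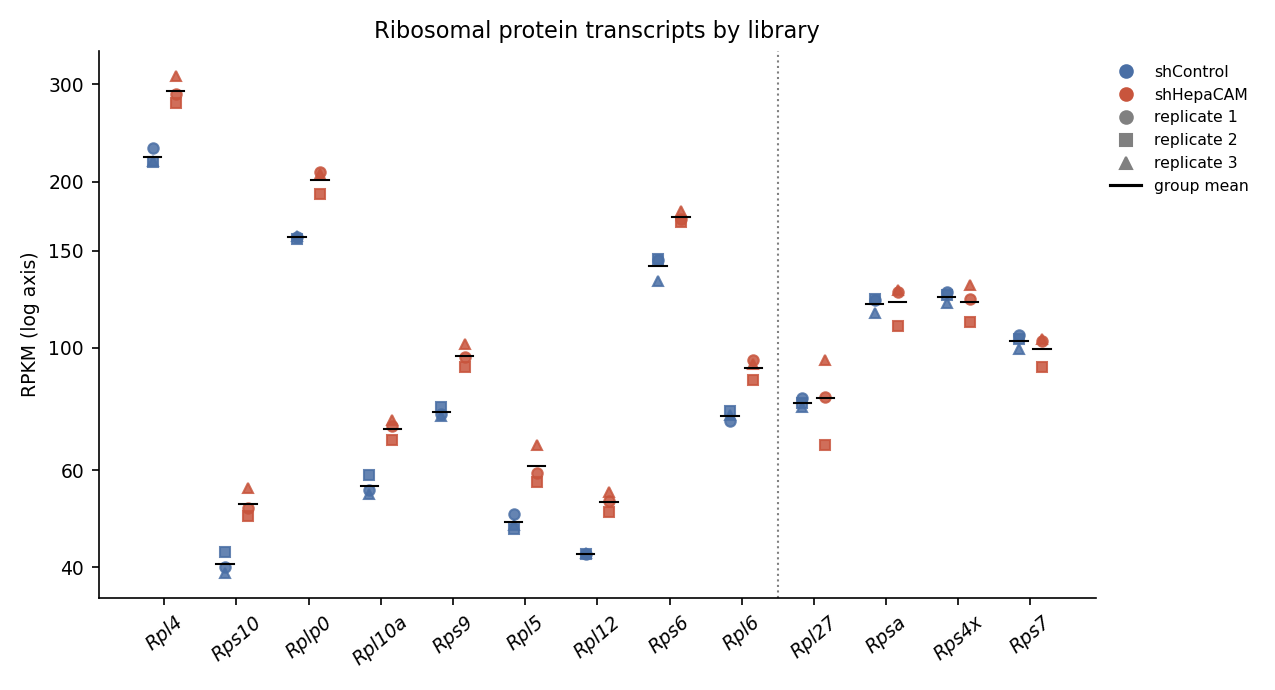
RPKM in each library for the 9 called members and for the 4 with the lowest log2 changes, on a log axis; blue is control, red is knockdown, the marker shape gives the replicate and bars are group means (n = 3). In the called members all knockdown points lie above all control points, while in Rps7, Rps4x, Rpsa and Rpl27 the groups overlap. Both sets of genes were chosen by their changes in these same libraries, so this contrast is a description.

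Some members showed little difference. Rps7, a small subunit protein, had 105, 104 and 99.3 RPKM in control and 103, 92.4 and 104 RPKM in knockdown libraries (log2 change -0.05, SE 0.07, adjusted p = 0.694), and Rps4x, the X-linked small subunit protein, had 126, 125 and 120.3 RPKM in control and 122, 111 and 129.9 RPKM in knockdown libraries (log2 change -0.03, SE 0.07, adjusted p = 0.814). Rpsa, also known as the laminin receptor, had 122, 122 and 116 RPKM in control and 126, 109.7 and 127 RPKM in knockdown libraries (log2 change 0.01, SE 0.07, adjusted p = 0.958), and its sign turned to -0.080 with median-gene scaling and -0.049 with TMM. In all 3 genes shHepaCAM replicate 2 was the lowest library of all. Rpl27, of the large subunit, had 80.9, 79.3 and 78.1 RPKM in control and 81.5, 66.6 and 95.03 RPKM in knockdown libraries (log2 change 0.01, SE 0.12, adjusted p = 0.960; -0.075 with median-gene scaling and -0.044 with TMM), so that knockdown libraries were both the lowest and the highest of the 6.

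The acidic stalk proteins did not pass the test that their base Rplp0 passed. Rplp1, the most abundant member per length, had 613, 634 and 603 RPKM in control and 644, 581 and 678 RPKM in knockdown libraries (log2 change 0.04, SE 0.08, adjusted p = 0.802; -0.050 with median-gene scaling and -0.019 with TMM). Rplp2, its partner, had 41.3, 41.3 and 36.7 RPKM in control and 41.0, 38.9 and 47.2 RPKM in knockdown libraries (log2 change 0.09, SE 0.09, adjusted p = 0.583; -0.00047 with median-gene scaling). Rplp1 made up 8.51 ± 0.16% (SD, n = 3) of the members' summed RPKM in control and 7.77 ± 0.07% (SD, n = 3) in knockdown libraries. The 9 called members together went the other way, from 11.9 ± 0.02% to 13.4 ± 0.46% (SD, n = 3 each); they were chosen for their rise, so this is a description. The difference between the changes of Rplp0 and of Rplp1 was not tested.

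Rps15 and Rps3a1 followed Rplp1 in abundance. Rps15, of the small subunit head, had 367, 391 and 356 RPKM in control and 398, 358 and 423 RPKM in knockdown libraries (log2 change 0.08, SE 0.08, adjusted p = 0.597; -0.010 with median-gene scaling). Rps3a1, which lies by the messenger RNA exit, had 316, 298 and 279 RPKM in control and 333, 321 and 390.4 RPKM in knockdown libraries (log2 change 0.22, SE 0.09, adjusted p = 0.196). Rpl11, the partner of Rpl5 on 5S ribosomal RNA, differed by 0.17 and Rps19, the first gene tied to Diamond-Blackfan anaemia, by 0.16, neither past the threshold (adjusted p = 0.274 and 0.254). Among the 3 lowest tested members, Rpl13a had 2.71, 2.40 and 2.73 RPKM in control and 3.23, 3.08 and 4.22 RPKM in knockdown libraries (log2 change 0.31, SE 0.12, adjusted p = 0.160) and Rpl23a had 5.80, 5.17 and 6.89 RPKM in control and 6.72, 7.97 and 5.33 RPKM in knockdown libraries (log2 change 0.14, SE 0.15, adjusted p = 0.611). These 2 rest on 631 and 520 reads over the 6 libraries, which is little beside the 59677 reads of Rpl3, and both genes have near-identical copies, so their values are uncertain.

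The shares that paralogs took of their pairs were similar in both groups. Rpl22l1 had 5.99, 5.28 and 5.67 RPKM in control and 6.45, 6.67 and 6.63 RPKM in knockdown libraries (log2 change 0.19, SE 0.07, adjusted p = 0.154), and it made up 15.5 ± 1.17% of the summed RPKM of Rpl22 and Rpl22l1 in control and 14.9 ± 1.14% in knockdown libraries (SD, n = 3 each). Rpl22 differed by 0.28 (adjusted p = 0.0761). Rpl7l1 (0.19, adjusted p = 0.114) held 19.4 ± 0.39% and 19.1 ± 0.81% of its pair with Rpl7, and Rps27l (0.14, adjusted p = 0.458), a p53 target, held 24.0 ± 2.84% and 23.0 ± 1.02% of its pair with Rps27 (SD, n = 3 each). Each of these shares differed between the groups by less than its SD in 1 or both groups. Rps27, the parent of Rps27l, differed by 0.21 (adjusted p = 0.104). The 3 untested members were Rpl39l and Rpl3l, the paralogs best known from testis and from muscle, at no more than 0.66 RPKM in any library, and Rpl24. Their parents Rpl39 and Rpl3 differed by 0.31 and 0.23 (adjusted p = 0.227 for Rpl3). Rpl24, a large subunit protein of every ribosome, was listed with 4, 2 and 1 reads in control and 5, 13 and 14 reads in knockdown libraries, far under its partners, and no change is read from so few reads.

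By library, the difference was graded. Set against the control mean, the median member stood at 0.01, 0.01 and -0.03 (log2) in shControl replicates 1, 2 and 3, and at 0.19, 0.08 and 0.30 in shHepaCAM replicates 1, 2 and 3. The median of all genes in those knockdown libraries was 0.03, 0.08 and 0.03, so in replicate 2 the ribosomal protein genes stood no higher than genes at large. Members above every control library numbered 71, 45 and 76 of 79 in the knockdown libraries, where 37.0%, 48.0% and 39.4% of all genes tested were above every control library. Replicate 3 was the highest of the 6 libraries for 67 members (18.0% of all genes), and replicate 2 was the lowest of the 6 for 12 (also 18.0% of all genes). Without replicate 2 the median change was 0.25 and all 79 members were above 0, and without replicate 3 it was 0.14 with 71 above 0. The medians of all genes were then 0.03 and 0.06, and the shares of all genes above 0 were not counted. Replicate 3 is also 1 of the libraries low in choroid plexus transcripts, as is shControl replicate 1, where the median member stood at 0.01. Between control libraries the members had a median coefficient of variation of 3.42%, against 7.30% for all genes tested. The latter reach down to a mean of 1 RPKM, and genes of the members' level were not compared separately.

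**Figure D3:**
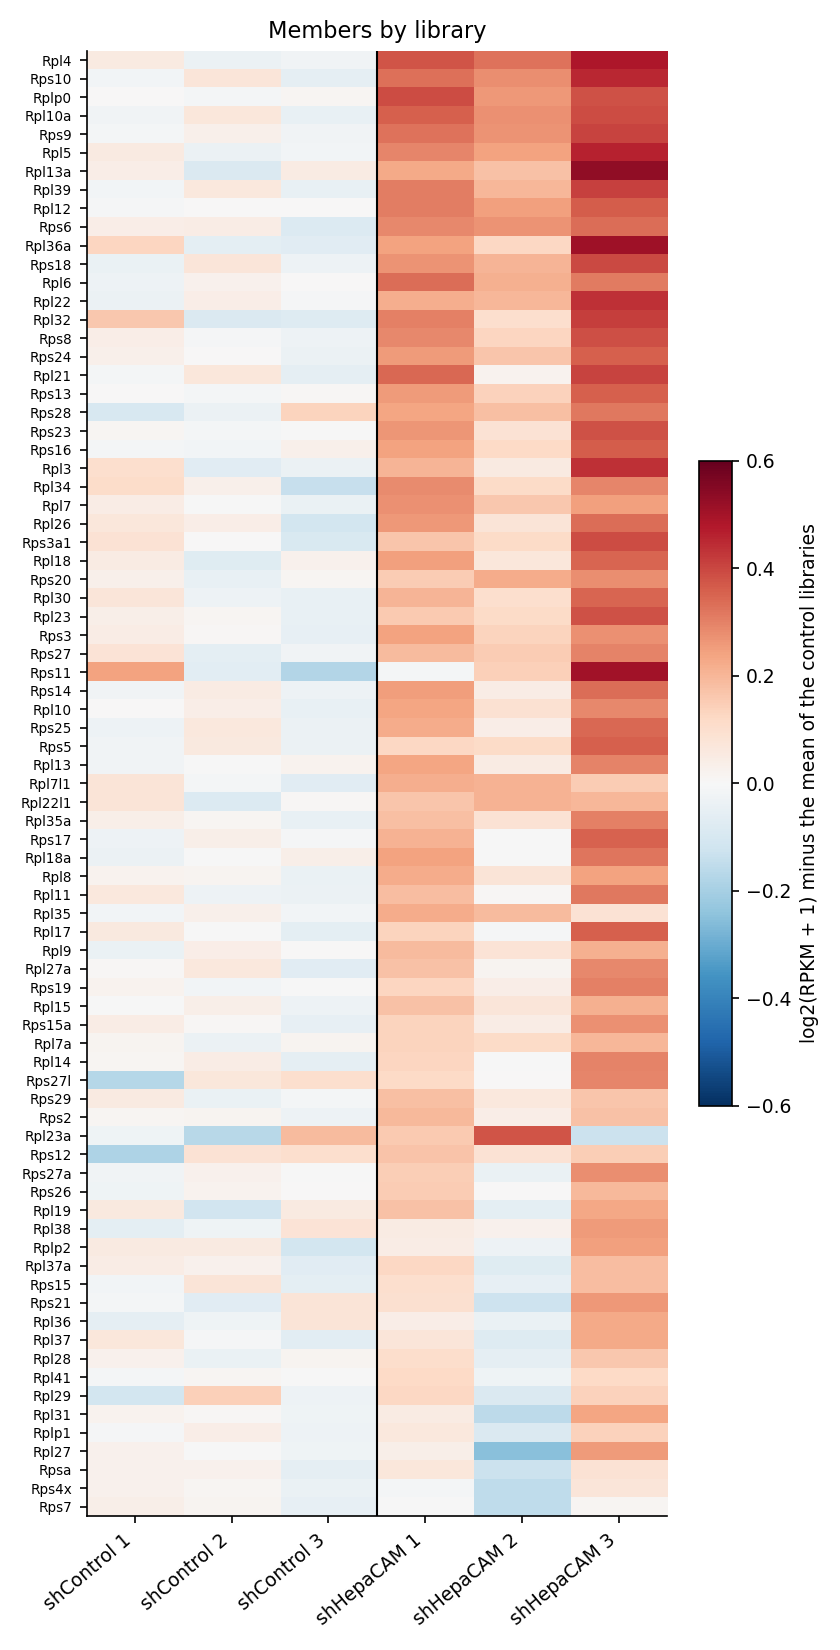
Each tested member's log2(RPKM + 1) relative to its control mean in the 6 libraries, members in rows, colour from -0.6 to 0.6. The column of shHepaCAM replicate 3 is the warmest (median 0.30) and that of shHepaCAM replicate 2 the palest of the knockdown libraries (median 0.08).

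Summed over members, the ribosomal proteins made up 2.49, 2.41 and 2.37% of all RPKM in control and 2.74, 2.63 and 2.93% in knockdown libraries, or 2.42 ± 0.06% and 2.76 ± 0.15% (SD, n = 3 each), a ratio of 1.14. The groups did not overlap. As a share of whole reads, the means were 1.16 ± 0.02% and 1.33 ± 0.10% (SD, n = 3 each). The large subunit went from 1.43 ± 0.04% to 1.63 ± 0.09% and the small from 0.995 ± 0.03% to 1.13 ± 0.06% (SD, n = 3 each). Their ratio hardly moved, the small subunit summing to 69.6 ± 0.62% of the large in control and 69.5 ± 0.32% in knockdown libraries. Shares of a whole depend on what else it holds: the genes of the mitochondrial genome took 16.5 ± 0.72% in control and 14.4 ± 0.67% in knockdown libraries, and immunoglobulin and T cell receptor genes 0.0078 ± 0.0004% and 1.11 ± 0.71% (SD, n = 3 each). With those genes left out of the sum, the members' share was 2.90 ± 0.06% and 3.27 ± 0.22% (SD, n = 3 each), and the groups still did not overlap.

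**Figure D4:**
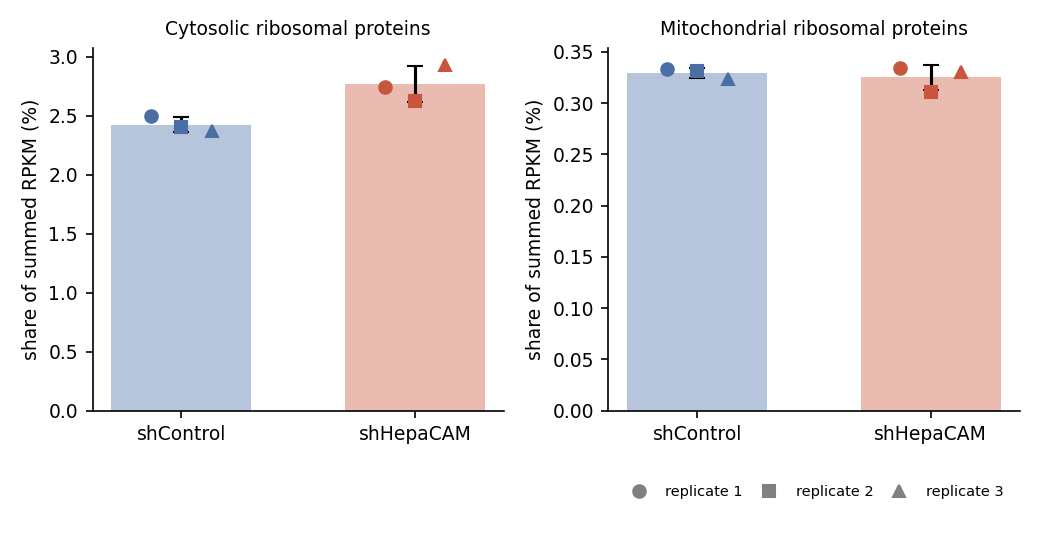
Share of summed RPKM, in percent, taken by cytosolic ribosomal protein genes and by mitochondrial ribosomal protein genes in each library; points are libraries, bars group means and error bars the SD (n = 3). The cytosolic share is 2.37 to 2.49% in control and 2.63 to 2.93% in knockdown libraries, while the mitochondrial share is 0.323 to 0.333% and 0.311 to 0.334%.

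Among the members, those with longer exon models differed more. The shortest 26 members (404 to 1444 bases) had a median change of 0.15 with 0 called, the middle 26 one of 0.19 with 5 called and the longest 27 (2473 to 6270 bases) one of 0.22 with 4 called. Over the 79 members Pearson's r between log2 length and change was 0.34 and Spearman's rho 0.35, a description across genes that share libraries and counting. All genes tested in the same length ranges had medians of 0.04 and 0.05. With a length trend removed from each library, 6 members were called (3.31% of all genes higher). The members' median was then 0.14 and that of all genes -0.0015, against 0.19 and 0.05 in the main fit. Mean RPKM, also on a log2 scale, had a Pearson's r of -0.20 with the change and total reads one of 0.01. Ribosomal protein messengers are short, and the longest models are unions of all annotated exons, which lowers the RPKM of those genes.

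Reads on pseudogenes held a near-constant share beside those on members. The 146 pseudogenes recognised by symbol held between 2.79 and 2.93% of the reads of members and pseudogenes in every library. Rps4l, annotated as a processed pseudogene, had 23.7, 23.5 and 24.6 RPKM in control and 27.3, 24.8 and 30.1 RPKM in knockdown libraries (log2 change 0.18, SE 0.08, adjusted p = 0.206), while Rps4x differed by -0.03. Rpl6l, a copy of Rpl6, had 10.7, 9.20 and 9.09 RPKM in control and 13.7, 13.6 and 15.1 RPKM in knockdown libraries (log2 change 0.51, SE 0.08, adjusted p = 0.0202), and it missed the threshold without shControl replicate 2 or 3 or shHepaCAM replicate 3 (adjusted p = 0.0873, 0.0925 and 0.0562). The handling of reads with several placements is not stated in the labels, so the split between Rpl6 and Rpl6l, and between Rps4x and Rps4l, is uncertain.

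Other messengers with TOP tracts had members that rose. Of 21 tested elongation factors and other TOP genes, 5 were called higher (4.23% of all genes) and 0 lower (1.84% of all genes), 15 had knockdown libraries wholly above control (20.9% of all genes did), and the median was 1.11-fold. The elongation factors among them did not pass, with log2 changes from -0.09 (Eef1a2, adjusted p = 0.475) to 0.31 (Eef1a1, adjusted p = 0.0615). Gas5, a noncoding host of small nucleolar RNAs that has a TOP tract, had 21.7, 20.9 and 19.8 RPKM in control and 31.1, 30.7 and 32.2 RPKM in knockdown libraries (log2 change 0.57, SE 0.06, adjusted p = 0.00520). Tpt1, the translationally controlled tumour protein, had 132, 139 and 141 RPKM in control and 172, 186 and 179 RPKM in knockdown libraries (log2 change 0.38, SE 0.06, adjusted p = 0.0192), and Eif4b, which helps the helicase Eif4a, had 69.9, 65.2 and 65.1 RPKM in control and 84.6, 83.0 and 90.8 RPKM in knockdown libraries (log2 change 0.36, SE 0.06, adjusted p = 0.0228). Rack1, the scaffold on the small subunit, and Pabpc1, the poly(A)-binding protein, were called too, with log2 changes of 0.34 and 0.36 (adjusted p = 0.0317 and 0.0331), and are named after their values were seen. Tpt1 and Eif4b lost their calls with median-gene scaling (adjusted p = 0.0563 and 0.0842) and without shControl replicate 1 (0.0717 and 0.0560), 2 (0.0858 and 0.101) or 3 (0.0861 and 0.110) or shHepaCAM replicate 3 (0.0522 and 0.0586). Rack1 and Pabpc1 lost theirs with median-gene scaling (0.115 and 0.0570) and without shControl replicate 1 (0.0691 and 0.103), 2 (0.121 and 0.112) or 3 (0.128 and 0.122) or shHepaCAM replicate 1 (0.0590 and 0.0605), Rack1 without shHepaCAM replicate 3 (0.0836) and Pabpc1 without shHepaCAM replicate 2 (0.0582). Gas5 lost it in 1 of its alternatives, without the pair of libraries poor in choroid plexus transcripts (adjusted p = 0.0513). Fau, which joins a ubiquitin-like protein to a ribosomal protein, differed by 0.13 (adjusted p = 0.414).

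The lists of genes that start translation and that make and control ribosomes are read against the 4.23% of all genes called higher and the 1.84% called lower. At an unadjusted p under 0.05, 2258 of the 13864 genes tested were higher (16.3%) and 1098 lower. Of 24 initiation factors 0 were called by limma or by limma-voom, while 9 were higher and 1 lower at an unadjusted p under 0.05 (median 1.09-fold). Knockdown libraries lay wholly above control for 10 of them and wholly below for 2 (20.9% and 10.7% of all genes). Eif6, the factor that keeps free large subunits apart, had 16.3, 16.6 and 17.3 RPKM in control and 14.6, 12.9 and 14.4 RPKM in knockdown libraries (log2 change -0.25, SE 0.07, adjusted p = 0.0801). Eif4g2, which serves noncanonical initiation, and Eif5b, which joins the subunits, differed by 0.23 and 0.19 (adjusted p = 0.104 and 0.106). Of 30 assembly factors, Gnl3 (nucleostemin) alone was called (log2 change 0.24, SE 0.06, adjusted p = 0.0498; median of the list 1.04-fold), and of 14 genes of RNA polymerase I transcription only Ubtf, the upstream binding factor of ribosomal DNA (log2 change 0.27, SE 0.06, adjusted p = 0.0404; median 1.06-fold). Of 14 genes that control TOP translation, Eif4ebp1, a repressor of cap-dependent translation whose block mTOR lifts, rose from 2.90, 1.92 and 1.47 to 4.12, 4.20 and 4.45 RPKM (log2 change 0.79, SE 0.16, adjusted p = 0.0395), and Pdcd4, an inhibitor of Eif4a, from 26.0, 25.3 and 23.2 to 30.8, 31.3 and 32.9 RPKM (log2 change 0.34, SE 0.06, adjusted p = 0.0302; median of the list 1.05-fold). Both encode repressors of translation. Of 10 tested genes of ribosome quality control and hibernation, 0 were called by limma or limma-voom (1 higher and 0 lower at an unadjusted p under 0.05; median 1.02-fold).

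These 4 calls depended on single libraries. Gnl3, Ubtf, Eif4ebp1 and Pdcd4 kept theirs in 3, 7, 8 and 9 alternatives. All 4 lost them without shControl replicate 2 (adjusted p = 0.151, 0.131, 0.131 and 0.105), shControl replicate 3 (0.188, 0.156, 0.112 and 0.118), shHepaCAM replicate 2 (0.0892, 0.0621, 0.0960 and 0.0593) or shHepaCAM replicate 3 (0.115, 0.0819, 0.101 and 0.0798). Gnl3, Ubtf and Pdcd4 also lost theirs without shControl replicate 1 (0.120, 0.112 and 0.0659), and Gnl3 and Eif4ebp1 without shHepaCAM replicate 1 (0.0668 and 0.0685).

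The ribosomal proteins of mitochondria, nuclear genes with a separate ribosome to build, showed no such shift. Of 77 such genes 76 were tested, 0 were called by limma or limma-voom (2 higher and 4 lower at an unadjusted p under 0.05, where 16.3% of all genes were higher), 28 were above 0 (60.4% of all genes) and the median was -0.04. The groups did not overlap upward for 4 of them (20.9% of all genes) and downward for 7 (10.7% of all genes). Mrps11, Mrpl54 and Mrpl3, with the smallest p-values, differed by -0.25, 0.31 and -0.16 (adjusted p = 0.0867, 0.146 and 0.162). Their median was below 0 in every alternative run, from -0.12 with median-gene scaling to -0.01 without shHepaCAM replicate 2, and that of the cytosolic members was above 0 in every one, from 0.11 to 0.25. The difference between the medians of the lists was not tested.

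**Figure D5:**
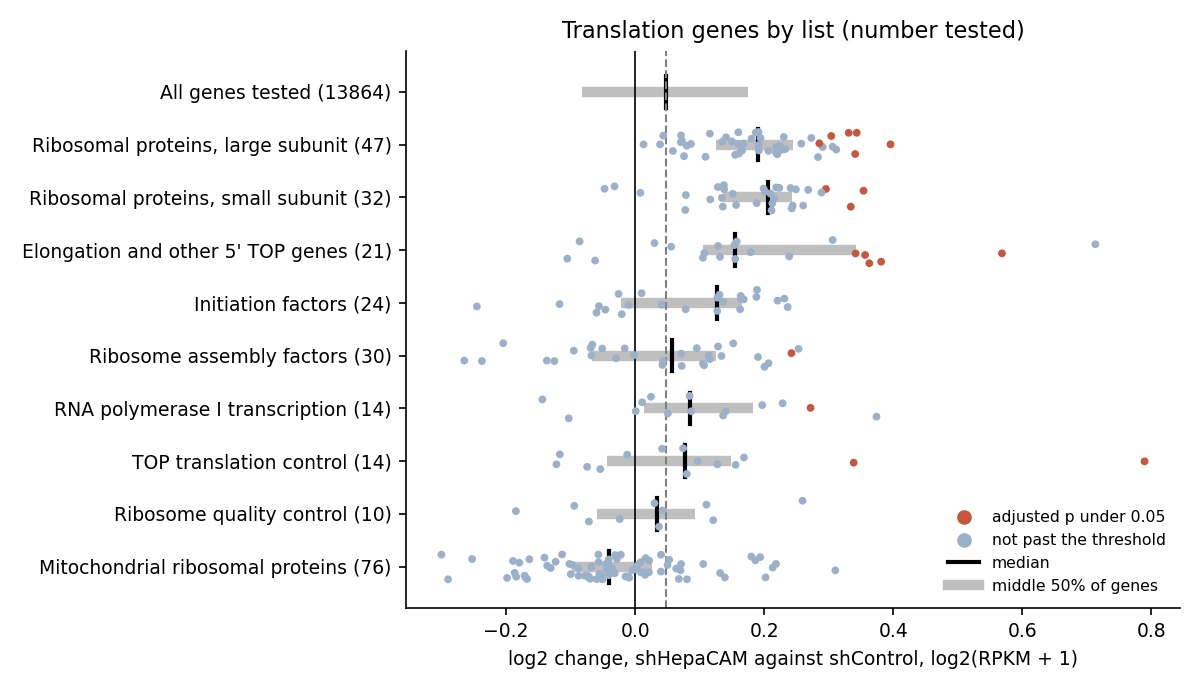
Log2(RPKM + 1) changes of the tested genes of the translation lists drawn, one point per gene, red where called, with the median as a black tick and the middle 50% of genes as a grey bar; the dashed line is the median of all genes (0.05). The large and small subunit proteins have medians of 0.19 and 0.21, the TOP genes 0.16 and the mitochondrial ribosomal proteins -0.04; these medians were not tested against each other.

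Markers of other cells moved with the groups. The 14 microglial markers summed to 460 to 532 RPKM in control and 839 to 1003 RPKM in knockdown libraries. Of them 9 were called higher (4.23% of all genes were called higher). The plasma and B cell markers summed to 36.0 to 38.4 and 574 to 1898 RPKM (4 of 7 tested called higher), and the T cell markers to 2.60 to 3.56 and 8.07 to 13.4 RPKM (2 of 3 tested). For these lists too the share of all genes called higher was 4.23%. Among these lists only Ms4a1 was at 0 in a control library. The 12 neuronal markers summed to 2039 to 2055 RPKM in control and 1458 to 1748 RPKM in knockdown libraries. Of them 9 had a log2 change below 0, with 4 called lower, and 3 above 0, with 0 called (1.84% of all genes were called lower). The astrocyte sums overlapped (944 to 1043 and 943 to 1037 RPKM). Of the 10 astrocyte markers, 6 had a log2 change above 0 and 4 below. Slc1a2 was called lower (log2 change -0.37, limma adjusted p = 0.0181). Knockdown libraries lay wholly below control for 4 astrocyte markers and wholly above for 1 (10.7% and 20.9% of all genes). In shHepaCAM replicates 1, 2 and 3, where the median ribosomal protein gene stood 0.19, 0.08 and 0.30 above the control mean, the sums were 842, 839 and 1003 RPKM for microglia, 574, 1161 and 1898 RPKM for plasma and B cells, 9.24, 13.4 and 8.07 RPKM for T cells and 1748, 1458 and 1666 RPKM for neurons. The 5 blood markers summed to 7.90 to 21.3 RPKM in control and 5.55 to 7.08 RPKM in knockdown libraries (0 of 3 tested called by limma or limma-voom, 2 lower at an unadjusted p under 0.05). The oligodendrocyte sums (990.5 to 1241 and 1009 to 1519 RPKM) and the endothelial sums (63.7 to 81.6 and 66.0 to 87.8 RPKM) overlapped, as did those of choroid plexus, of which 0 of 12 genes were called (0 at an unadjusted p under 0.05). The part of these cell types in the ribosomal protein result was not tested. With the choroid plexus marker Ttr as a covariate, 7 members were called (3.21% of all genes higher).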

How the data were processed

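RNA was measured in 6 libraries of mouse hippocampus, grouped by their titles, and the deposited values are RPKM per gene and library as the authors computed them. Per the submitters' processing notes, TopHat2 2.0.12, Bowtie2 2.0.6 and build mm39 were used. For the counter, gene models and strand setting the labels name nothing. Names, gene classes and exon lengths came from GENCODE M21, which has symbols for 29805 of 29872 genes. RPKM values are whole multiples of 1 read's worth: with annotated lengths 27390 genes were whole within 0.01 read in every library, and the other 2482 had a step of their own, which gave depth and reads (71 and 11 of the members). A further 5 symbols that fit the pattern are not protein-coding and were left out.

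Limma 3.58.1 in R 4.3.3 with a mean-variance trend was run on log2(RPKM + 1) of 13864 genes, those whose mean reached 1 RPKM, adjusted by Benjamini-Hochberg, with calls at an adjusted p under 0.05. On that scale the changes of low genes come out too small. Limma-voom on the recovered reads called 1078 genes, against 842. Between the most alike libraries chi-square over degrees of freedom was 4.09, so none counts as a repeat.

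Named members were those past the threshold, the largest changes in each direction, the 3 highest and 3 lowest levels, paralogs with their parents, and Rps6, Rpl5, Rpl11, Rps19, Rplp0, Rplp1, Rplp2 and Rpsa. Of other lists, the members past the threshold or the 3 smallest p-values were named. Rps18, Rps24, Rps4l, Rpl6l, Rack1, Pabpc1 and Rpl27 were added after their values were seen. A gene that the rule takes is not reported here. Members and lists were chosen with earlier results of these data known. Alternatives were another pseudocount (0.1), other filters (none, 5 RPKM), median-gene, quantile and TMM scaling, no trend, array weights, a replicate block, Ttr as a covariate, a length trend removed, protein-coding genes only, limma-voom and leaving out libraries. Plots used matplotlib 3.10.9 under Python 3.11.15.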

Additional observations from a re-analysis of the deposited data

How the results depend on the processing

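Over 20 alternatives the median change of the cytosolic ribosomal protein genes stayed above 0 and that of the mitochondrial ones below 0. Depth recovered from RPKM covers counting error only, and 3 libraries a group limit every call. Against 842 genes called in the main test, no filter on low values gave 169, the replicate block 157 and leaving out the pair of libraries poor in choroid plexus transcripts 104. The called ribosomal protein genes (9) became 0 in these 3 settings and also with median-gene scaling and with TMM, 3 without the trend, 16 with quantile normalization and 18 with array weights. Of all genes, 0.405% were called higher without the filter, 0.808% with the block, 3.07% without the trend, 2.81% with quantile normalization and 4.96% with array weights. The 9 calls in the pathway lists became 1 without the filter, 2 with median-gene scaling, 4 with TMM, 3 without the trend, 1 with the block and 0 without the pair of libraries poor in choroid plexus transcripts. The cause of these differences was not tested. With median-gene scaling the cytosolic median was 0.11 and the mitochondrial one -0.12, and the latter was -0.094 with quantile normalization, -0.090 with TMM and -0.090 with a length trend removed. The share difference of 0.341 percentage points was 0.169 on whole reads, where the share itself is smaller; the ratio of group means was 1.14 on RPKM and 1.15 on reads.

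Some small changes turned sign: with median-gene scaling Rpl27 (-0.075), Rplp1 (-0.050), Rplp2 (-0.00047), Rps15 (-0.010) and Rpsa (-0.080), with TMM Rpl27 (-0.044), Rplp1 (-0.019) and Rpsa (-0.049), without the pair of libraries poor in choroid plexus transcripts Rpl27 (-0.095), Rplp1 (-0.015), Rps27l (-0.026) and Rpsa (-0.018), with Ttr as a covariate Rpl27 (-0.022) and Rpsa (-0.0043), and with the length trend removed Rpl27 (-0.034), Rplp1 (-0.029) and Rpsa (-0.042). Hepacam without both of those libraries was -0.54 (limma adjusted p = 0.0695).

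Leaving out 1 library at a time gave 98 to 867 called genes, 0 to 18 ribosomal protein genes, 1 to 6 genes of the pathway lists, Hepacam changes of -0.68 to -0.58, and for Rpl27 -0.11 to 0.15, Rplp1 -0.011 to 0.10, Rps4x -0.083 to 0.029, Rps7 -0.077 to 0.0056 and Rpsa -0.030 to 0.077. When a library was left out, the limma fit pooled the spread of the remaining 5.

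The labels do not say whether the replicate numbers pair the libraries. Deviations from the group means correlated by -0.21, 0.02 and -0.14 over 13864 genes between libraries of the same number. The largest correlation, 0.27, was between shControl replicate 1 and shHepaCAM replicate 3, the pair poor in choroid plexus transcripts. With 3 libraries a group, such correlations cannot decide whether the numbers are pairs. The replicate block took the numbers as pairs, with 157 genes and 0 ribosomal protein genes called.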
